A study of Mus musculus with 12 samples.

Results

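The genes described here are the receptors for sphingosine 1-phosphate (S1P) and the enzymes that make and destroy it. They are the 5 receptor genes S1pr1, S1pr2, S1pr3, S1pr4 and S1pr5, the sphingosine kinase genes Sphk1 and Sphk2, and the S1P lyase gene Sgpl1. The 8 genes were taken by name from the 56953 genes of the count table, and each of the 8 had counts and was tested in every comparison of the 4 groups.

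RNA was sequenced from myeloid cells sorted from the bone marrow of 8-week-old female C57BL/6J mice. According to the study's methods, these mice carried a Cre recombinase in the Rank locus together with a Cre-dependent eYFP reporter in the Rosa26 locus. Macrophages of embryonic origin and their progeny are labelled in this system, whereas cells made by adult hematopoietic stem cells stay eYFP-. The 12 libraries formed 4 groups of 3 replicates, namely eYFP+ macrophages, eYFP- macrophages, Ly6Chi monocytes and Ly6Clo monocytes. The sorted macrophages had a high level of F4/80, and both monocyte groups were set apart by the surface protein Ly6C. The labels name no treatment besides the eYFP status. The reporter marks descent and not present activity of Rank, and an embryonic cell in which Cre failed to recombine would be sorted as eYFP-. Whether the replicates came from separate mice is not stated, so p-values measure the spread between these libraries, which may be partly technical.

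S1P is a lipid signal that is abundant in blood and lymph and scarce inside tissues, and leukocytes read this gradient when they leave the marrow or lymphoid organs. Sphingosine kinases add the phosphate, phosphatases remove it, and the lyase Sgpl1 splits S1P in a step that cannot be reversed. The 5 receptors are G protein-coupled and differ in the G proteins they use. S1pr1 is best known for the exit of lymphocytes from lymph nodes, S1pr2 for restraint of migration, S1pr3 for signalling in endothelium and macrophages, S1pr4 for its restriction to blood cells, and S1pr5 for the exit of natural killer (NK) cells and Ly6Clo monocytes from the marrow.

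The promoters of S1pr3 and S1pr5 are shown because these genes had the largest fold changes of the 8 in opposite directions between macrophages and monocytes. Each window runs from 250 bases before to 50 after the annotated start in RefSeq (build GRCm38.p6), is written 5′ to 3′ on the gene's strand, and has each GC box (GGGCGG, or its reverse complement CCGCCC) in capitals. The S1pr3 window lies at chr13:51408368-51408667 on the plus strand and the S1pr5 window at chr9:21248394-21248693 on the minus strand.
S1pr3: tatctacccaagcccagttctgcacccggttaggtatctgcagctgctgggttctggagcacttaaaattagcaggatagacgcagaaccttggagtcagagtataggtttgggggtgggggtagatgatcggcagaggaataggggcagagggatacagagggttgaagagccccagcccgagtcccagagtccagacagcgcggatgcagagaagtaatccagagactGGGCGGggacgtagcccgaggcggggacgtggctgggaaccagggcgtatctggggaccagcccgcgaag
S1pr5: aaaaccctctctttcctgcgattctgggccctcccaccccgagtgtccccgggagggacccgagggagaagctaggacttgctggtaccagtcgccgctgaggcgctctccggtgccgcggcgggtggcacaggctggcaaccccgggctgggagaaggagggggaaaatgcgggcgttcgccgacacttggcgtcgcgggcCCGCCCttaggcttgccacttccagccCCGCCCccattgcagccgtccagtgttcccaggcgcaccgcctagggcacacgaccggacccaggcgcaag
The S1pr3 window had a GC content of 59.0% and 14 CpG dinucleotides, and the S1pr5 window 69.3% and 27, against a median GC content of 52.7% over all 32851 promoter windows. S1pr3 held 1 GC box and S1pr5 held 2. A window was given for 7 of the 8 genes, with 12 windows in all, and 6 of the 12 held a GC box, compared with 35.7% of all windows. The Nr4a element AAAGGTCA was found in 1.51% of all windows, the T-box element GGTGTGA in 3.98% and the PU.1 element GAGGAAG in 13.6%, on either strand. None of these letters was found in the 12 windows.

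Between 26390927 and 48618187 read pairs were counted per library. The level of a gene is given as TPM, its counts per transcript length scaled to the same sum in each library. Summed TPM of 7 markers of bone marrow macrophages was 22525 to 27255 in eYFP+ and 19198 to 21389 in eYFP- macrophages but 275 to 326 in Ly6Chi and 572 to 1317 in Ly6Clo monocytes. The 5 Ly6Chi monocyte markers summed to 8100 to 9129 TPM in Ly6Chi libraries and to 268 to 375 TPM in Ly6Clo libraries. Ly6Clo replicate 2 stood apart, with counts for 16434 genes against 22254 and 24769 in the other Ly6Clo libraries. In the tenth of genes with the highest GC content, its median was lower than that of its group by a log2 ratio of -1.5, followed by eYFP+ replicate 1 at -0.74, while the other 10 libraries lay between -0.12 and 0.37. This may touch S1pr4, S1pr5, Sphk1 and Sphk2, whose transcripts have 57.1% to 59.6% GC. In addition, 4 genes (S1pr1, S1pr2, S1pr3 and Sphk1) had no read pair at all in Ly6Clo replicate 2. The falls in that library did not follow GC content gene by gene. The log2 ratio to the other Ly6Clo replicates was -10.38 for S1pr2 (51.6% GC) and -5.68 for S1pr1 (48.8%). It was -3.03 for S1pr5 (57.1%), -3.72 for Sphk2 (58.6%) and -1.27 for Sgpl1 (48.8%). In eYFP+ replicate 1, S1pr4, S1pr5 and Sphk2 were lower than in the other replicates, but Sphk1, with 59.6% GC, was higher. The part of GC content was not tested. The calls of the 8 genes and the counts of the pathway lists are given with and without Ly6Clo replicate 2. In bulk RNA, fewer cells of a type and less RNA per cell cannot be told apart.

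Between macrophages and monocytes, 6 of the 8 genes changed, compared with 35.4% of all genes tested (DESeq2 Wald test, Benjamini-Hochberg adjusted p under 0.05). S1pr1, S1pr3, Sphk1 and Sgpl1 were higher in macrophages, where 20.3% of all genes were higher. S1pr4 and S1pr5 were lower in macrophages, where 15% of all genes were lower. Between eYFP+ and eYFP- macrophages, S1pr4 alone passed this test and was lower in eYFP+ cells, as were 1.88% of all genes (2.04% in either direction). Between Ly6Chi and Ly6Clo monocytes, S1pr1 alone passed and was lower in Ly6Chi cells, as were 4.97% of all genes (8.62% in either direction). Without Ly6Clo replicate 2, the genes past the threshold numbered 3, 1 and 6 of 8 for eYFP+ minus eYFP-, Ly6Chi minus Ly6Clo and macrophages minus monocytes, at backgrounds of 4.16%, 9.7% and 39.2%. Without eYFP+ replicate 1 as well they numbered 3, 4 and 7, at 4.61%, 13.6% and 41.2%. In DESeq2 fits on only the 6 libraries compared, 3.28% of all genes passed between the macrophage groups and 5.92% between the monocyte groups. With edgeR, 0, 0 and 5 of the 8 genes passed, at backgrounds of 0.328%, 4.18% and 35.4%. The median log2 fold change of the 8 genes was -1.19 for eYFP+ minus eYFP- macrophages, where the median of all genes tested was 0.05. These medians were 0.41 and 0.02 for Ly6Chi minus Ly6Clo monocytes and 0.48 and 0.08 for macrophages minus monocytes. The 3 comparisons were taken from 1 fit and share libraries.

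**Figure D1:**
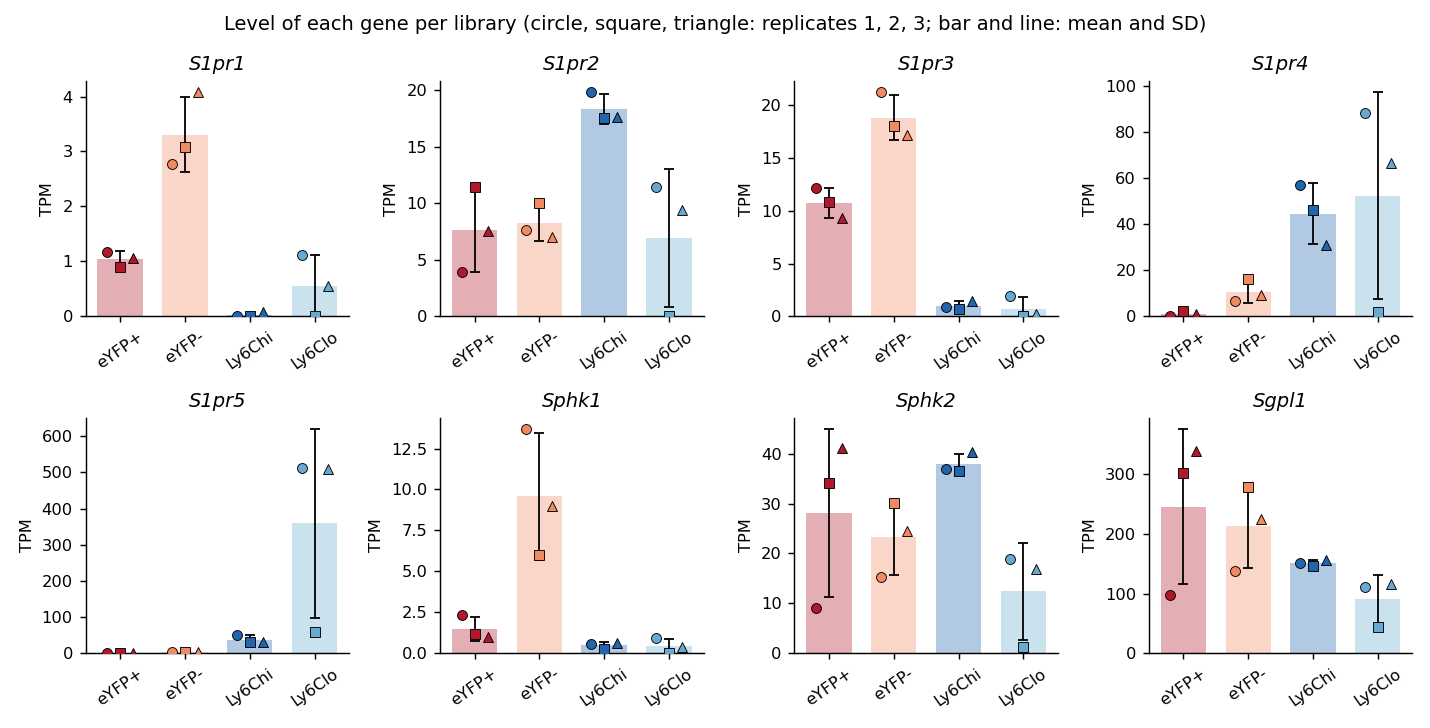
Level of each of the 8 genes in TPM (linear axis, own scale per gene) in the 3 libraries of eYFP+ macrophages, eYFP- macrophages, Ly6Chi monocytes and Ly6Clo monocytes; bars are means, lines are 1 SD in each direction (cut at 0 where they reach below it) and symbols are replicates 1 (circle), 2 (square) and 3 (triangle). Mean S1pr3 and Sphk1 were highest in eYFP- macrophages, mean S1pr4 and S1pr5 in Ly6Clo monocytes, and Ly6Clo replicate 2 was the lowest of its group for every gene.

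S1pr1 couples to inhibitory G proteins and drives migration towards S1P. Its level was 1.17, 0.890 and 1.07 TPM in eYFP+ macrophages, and 2.76, 3.08 and 4.08 TPM in eYFP- macrophages. It was 0, 0 and 0.0768 TPM in Ly6Chi monocytes, and 1.12, 0 and 0.545 TPM in Ly6Clo monocytes. Thus, each eYFP- library lay above each eYFP+ library, and only 4 read pairs in all were counted in the 3 Ly6Chi libraries. Among all genes tested, 8.5% were lower in eYFP+ than in eYFP- macrophages with no overlap of their normalised counts. Macrophages had more S1pr1 than monocytes by 3.91 ± 0.79 on the log2 scale (fitted fold change ± SE throughout, adjusted p = 5.57e-06 in DESeq2). Without Ly6Clo replicate 2 the value was 3.58 ± 0.49 (DESeq2 adjusted p = 3.83e-12). However, eYFP+ macrophages did not differ from Ly6Clo monocytes beyond the spread (0.89, DESeq2 adjusted p = 0.566). This held without Ly6Clo replicate 2 (0.25 ± 0.51, DESeq2 adjusted p = 0.779), and Ly6Clo replicate 1 lay within the eYFP+ range. In contrast, eYFP- macrophages had more S1pr1 than Ly6Clo monocytes over 12 libraries (2.51, DESeq2 adjusted p = 0.0466). Within monocytes, Ly6Chi cells had less than Ly6Clo cells by a log2 fold change of -4.42 ± 1.23 (adjusted p = 0.00675, DESeq2), although the Ly6Clo value came from 2 of 3 libraries with 78 and 34 read pairs. It was -5.02 ± 0.88 without Ly6Clo replicate 2 (DESeq2 adjusted p = 6.03e-07). All 4 Ly6Chi read pairs came from replicate 3, and without it the fitted value was -7.34 (DESeq2 adjusted p = 0.00162) and that of macrophages minus monocytes 5.36. With all libraries the mean TPM of Ly6Clo monocytes was 21.6-fold that of Ly6Chi monocytes, and a fitted value against libraries at 0 is no bound on the fold. The Ly6Chi minus Ly6Clo call was lost without Ly6Chi replicate 1 (adjusted p = 0.0512) or Ly6Clo replicate 1 (adjusted p = 0.0619) in DESeq2, and in the DESeq2 fit on only the 6 monocyte libraries (-4.38 ± 1.73, adjusted p = 0.126). It was also lost with edgeR (adjusted p = 0.125) and with limma on log2(TPM + 1) or log2(TPM + 0.1) (adjusted p = 0.265 and 0.203), and it was made in 19 of 26 settings.

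Between the macrophage groups, the mean S1pr1 level was 3.31 ± 0.686 TPM (SD, n = 3) in eYFP- and 1.04 ± 0.143 TPM in eYFP+ cells, a ratio of 3.17. The log2 fold change of -1.62 ± 0.99 did not pass in the fit over 12 libraries (DESeq2 adjusted p = 0.757). It passed with the same size once Ly6Clo replicate 2, a library outside this comparison that widens the shared estimate of spread, was left out (-1.62 ± 0.44, adjusted p = 0.0105, DESeq2). It also passed in DESeq2 when only the 6 macrophage libraries were fitted (adjusted p = 0.00676), whereas the adjusted p was 0.922 with edgeR, and 3 of 26 settings called it.

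S1pr2 signals mainly through Gna12 and Gna13 and is known to hold cells in place. Its level was 3.97, 11.5 and 7.52 TPM in eYFP+ macrophages, and 7.65, 10.1 and 7.05 TPM in eYFP- macrophages. It was 19.8, 17.5 and 17.7 TPM in Ly6Chi monocytes, and 11.4, 0 and 9.37 TPM in Ly6Clo monocytes. The 3 Ly6Chi libraries were the highest, the macrophage groups overlapped, and the Ly6Clo group split into 2 libraries near 10.4 TPM and 1 library with no read pair. No comparison passed over 12 libraries, with a log2 fold change of -0.60 ± 0.97 for macrophages minus monocytes (DESeq2 adjusted p = 0.689). Without Ly6Clo replicate 2 macrophages had less S1pr2 than monocytes by a log2 fold change of -0.95 ± 0.24 (DESeq2 adjusted p = 0.0003). Without both that library and eYFP+ replicate 1, Ly6Chi also exceeded Ly6Clo monocytes by 0.86 ± 0.25 (DESeq2 adjusted p = 0.00591).

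S1pr3 couples to several classes of G protein. Its level was 12.1, 10.8 and 9.30 TPM in eYFP+ macrophages, and 21.2, 18.0 and 17.2 TPM in eYFP- macrophages. It was 0.847, 0.684 and 1.48 TPM in Ly6Chi monocytes, and 1.96, 0 and 0.197 TPM in Ly6Clo monocytes. All 6 macrophage libraries lay above all 6 monocyte libraries, as they did for 10.7% of all genes tested, and the macrophage groups did not overlap either. Macrophages had more S1pr3 than monocytes by a log2 fold change of 4.01 ± 0.68 (DESeq2 adjusted p = 4.14e-08) and by 3.67 ± 0.42 without Ly6Clo replicate 2 (adjusted p = 5.23e-17). The mean was 18.8 ± 2.1 TPM in eYFP- and 10.7 ± 1.41 TPM in eYFP+ macrophages (SD, n = 3). Their log2 difference of -0.77 ± 0.96 did not pass (DESeq2 adjusted p = 1), nor did it under any alternative that gave a p, where adjusted p was 0.278 or more. The monocyte groups overlapped at low level, and their difference of 0.56 ± 0.97 moved to 3.27 with adjusted p = 0.000129 in DESeq2 when Ly6Clo replicate 1, the library with the most S1pr3 in that group, was left out. Counts of S1pr3, S1pr5, Sphk1 and Sphk2 may gain or lose reads through overlapping genes on the opposite strand, since the use of strand in counting is not stated. For Sphk2 these genes are Dbp and Rpl18, and Sgpl1 overlaps the microRNA gene Gm44308 on its own strand.

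S1pr4 is a receptor of blood and immune cells. Its level was 0.219, 2.25 and 1.26 TPM in eYFP+ macrophages, and 6.49, 16.1 and 9.22 TPM in eYFP- macrophages. It was 57.1, 46.1 and 30.9 TPM in Ly6Chi monocytes, and 88.5, 2.13 and 66.8 TPM in Ly6Clo monocytes. Ly6Clo replicate 2 lay within the range of the eYFP+ macrophages. Apart from that library, eYFP+ macrophages were lowest, eYFP- macrophages next and monocytes highest, with no overlap between these 3 ranges. How many of all genes show such ranges without that library was not counted. S1pr4 was lower in macrophages than in monocytes by a log2 fold change of -3.86 ± 0.63 (DESeq2 adjusted p = 8.8e-09), and by -4.19 ± 0.40 without Ly6Clo replicate 2 (adjusted p = 1.28e-24). The sum of the 7 neutrophil and precursor markers moved the same way. It was 4915 to 7612 TPM in Ly6Chi and 2716 to 4816 TPM in Ly6Clo monocytes against 27 to 54.5 TPM in eYFP+ and 162 to 1180 TPM in eYFP- macrophages. Ngp, Ltf, Camp, Ly6g and Retnlg had higher means in both monocyte groups than in both macrophage groups. Elane and Mpo did not, with means of 1.44 and 6.42 TPM in Ly6Clo monocytes against 71.8 and 355 TPM in eYFP- macrophages. The part of such cells in the S1pr4 difference was not tested. S1pr4 was also lower in eYFP+ than in eYFP- macrophages, by -3.07 ± 0.89 (DESeq2 adjusted p = 0.0325), from means of 1.24 ± 1.02 and 10.6 ± 4.94 TPM (SD, n = 3). In each of the 3 eYFP- libraries the level was above that of each eYFP+ library, as for 8.5% of all genes tested (normalised counts).

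The S1pr4 difference between the macrophage groups kept its direction in all alternatives but was close to the threshold over 12 libraries. Without Ly6Clo replicate 2 the log2 fold change was again -3.07, now ± 0.54 (DESeq2 adjusted p = 1.72e-06), and without eYFP+ replicate 1 as well it was -2.60 ± 0.39 (adjusted p = 3.48e-09). It missed the threshold in DESeq2 without eYFP- replicate 1, 2 or 3 (adjusted p = 0.0779, 0.138 and 0.121), without eYFP+ replicate 1 or 3 alone (0.158 and 0.135) or without Ly6Chi replicate 2 (0.053). With edgeR the adjusted p was 0.399, without independent filtering in DESeq2 0.0645, and with limma 0.426 on log2(TPM + 1) and 0.354 on log2(TPM + 0.1). It was called in 15 of 26 settings. Ly6Chi and Ly6Clo monocytes did not differ beyond their spread (-0.19 ± 0.88, DESeq2 adjusted p = 0.945).

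S1pr5 had the widest range of the 8 genes. Its level was 0, 0.462 and 0 TPM in eYFP+ macrophages, and 1.87, 1.77 and 1.90 TPM in eYFP- macrophages. It was 50.7, 30.6 and 29.9 TPM in Ly6Chi monocytes, and 511.4, 57.7 and 508.1 TPM in Ly6Clo monocytes. The groups did not overlap, and the highest library of each group lay below the lowest of the next in the order eYFP+, eYFP-, Ly6Chi and Ly6Clo. The same lack of overlap was found for 6.94% of all genes tested in macrophages below monocytes, and for 11.9% in Ly6Chi below Ly6Clo monocytes. S1pr5 was lower in macrophages than in monocytes by a log2 fold change of -7.86 ± 0.95 (DESeq2 adjusted p = 2.66e-15), and by -8.16 ± 0.96 without Ly6Clo replicate 2 (adjusted p = 2.70e-16). It had 23 read pairs in eYFP+ replicate 2 and none in replicates 1 and 3, against 103 or more in each eYFP- library. This difference, of -3.60 ± 1.36, did not pass (DESeq2 adjusted p = 0.211), nor did it without Ly6Clo replicate 2 (adjusted p = 0.0988), in the DESeq2 fit on 6 macrophage libraries (0.632) or with edgeR (0.316). It passed in 4 of 26 settings. These were DESeq2 with TMM factors (adjusted p = 0.0318), total-count scaling (0.025) or the GC content correction (0.00523), and without eYFP+ replicate 2, the library of that group that held its reads (9.06e-06). In the last setting both remaining eYFP+ libraries were at 0, and the fitted value moved to -9.11, or to -10.61 for macrophages minus monocytes, which are no bounds. With all libraries the mean TPM of eYFP- macrophages was 12-fold that of eYFP+ macrophages.

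Within monocytes, the mean S1pr5 level was 359 ± 261 TPM in Ly6Clo and 37.1 ± 11.8 TPM in Ly6Chi cells (SD, n = 3), a ratio of 9.68, or 13.7 without Ly6Clo replicate 2. The log2 fold change of Ly6Chi minus Ly6Clo was -3.24 ± 1.33 and did not pass in the fit over 12 libraries (DESeq2 adjusted p = 0.114). It passed in DESeq2 when only the 6 monocyte libraries were fitted (adjusted p = 7.63e-05), when eYFP+ replicate 1, 2 or 3 was left out (adjusted p = 0.00352, 4.64e-05 and 0.00245), and without both Ly6Clo replicate 2 and eYFP+ replicate 1 (-3.74 ± 1.01, adjusted p = 0.00319). It also passed in DESeq2 with TMM factors (adjusted p = 0.0197), total-count scaling (0.0171) or the GC content correction (0.00096), and with limma on log2(TPM + 1) (0.024). With Ly6Clo replicate 2 alone left out the adjusted p was 0.0738 in DESeq2, and over 12 libraries it was 0.0979 with edgeR and 0.0779 with limma on log2(TPM + 0.1). The call was made in 9 of 26 settings.

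As a share of the summed TPM of the 5 receptors, S1pr3 led in the mean of both macrophage groups, S1pr4 in Ly6Chi monocytes and S1pr5 in Ly6Clo monocytes. In eYFP+ macrophages S1pr3 made up 53.2% ± 14.4 (SD, n = 3) and S1pr2 35.4% ± 11.3, or 45.2% and 41.8% without replicate 1, and S1pr2 led in replicate 2. In eYFP- macrophages S1pr3 made up 44.4% ± 8.17 and S1pr4 24.1% ± 8.31, and S1pr4 held 5.52% ± 3.84 in eYFP+ cells. Ly6Chi monocytes were divided between S1pr4 with 43.9% ± 4.99 and S1pr5 with 36.4% ± 3.69, followed by S1pr2 with 18.7% ± 3.33. In Ly6Clo monocytes S1pr5 alone made up 88.8% ± 6.82, or 85.0% without replicate 2. The summed level went from 20.8 ± 4.45 TPM in eYFP+ and 42.8 ± 5.39 TPM in eYFP- macrophages to 101 ± 24.8 TPM in Ly6Chi and 420 ± 312 TPM in Ly6Clo monocytes, or 599.7 TPM without Ly6Clo replicate 2. These shares were not tested.

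**Figure D2:**
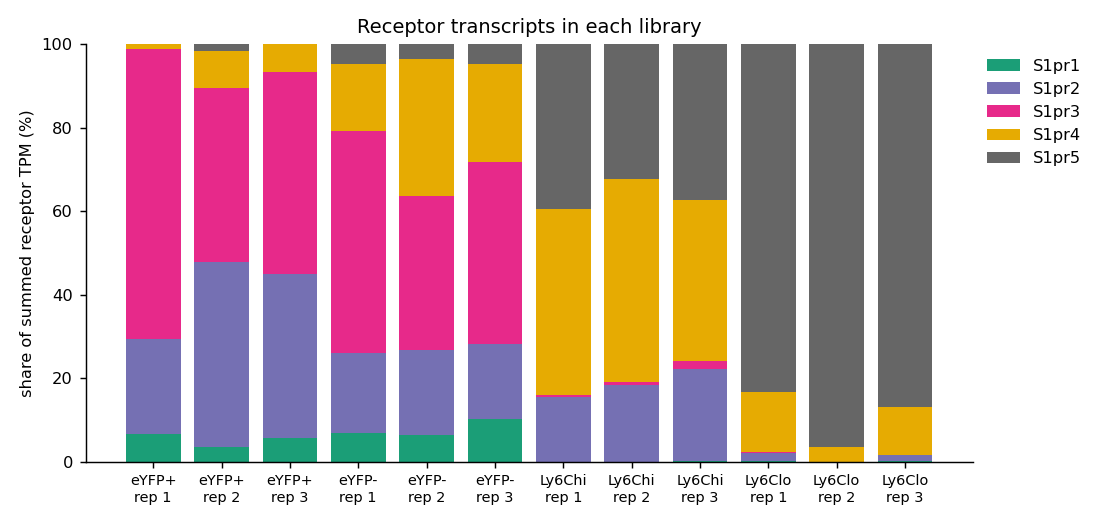
Share of the summed TPM of the 5 receptor genes (vertical axis, percent) held by each receptor in each of the 12 libraries, in the order of groups eYFP+, eYFP-, Ly6Chi and Ly6Clo. S1pr3 leads in the mean of both macrophage groups, S1pr4 and S1pr5 share the Ly6Chi libraries, and S1pr5 holds 83.2% to 96.4% of the Ly6Clo libraries.

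Of the kinases, Sphk1 is the inducible enzyme that moves to the plasma membrane, and Sphk2 works largely inside the cell, in the nucleus and mitochondria. Sphk1 was at 2.33, 1.15 and 0.966 TPM in eYFP+ macrophages, and at 13.7, 6.00 and 9.01 TPM in eYFP- macrophages. It was at 0.577, 0.265 and 0.616 TPM in Ly6Chi monocytes, and at 0.902, 0 and 0.349 TPM in Ly6Clo monocytes. In TPM, the eYFP- libraries stood above all others, and the eYFP+ libraries above all monocyte libraries. In normalised counts, eYFP+ replicate 3 (46.63) lay just below Ly6Clo replicate 1 (46.68), so macrophages and monocytes overlapped. The macrophage groups did not overlap, and 8.5% of all genes tested were lower in eYFP+ cells in this way. Macrophages had more Sphk1 than monocytes by a log2 fold change of 3.03 ± 0.60 (DESeq2 adjusted p = 3.17e-06), and by 2.69 ± 0.42 without Ly6Clo replicate 2 (adjusted p = 1.24e-09). The 5 erythroid markers moved the same way, with summed levels of 6865 to 28273 TPM over the macrophage libraries and 272 to 1075 TPM over the monocyte libraries. Their part in the Sphk1 difference, or in those of S1pr1 and S1pr3 in this comparison, was not tested. Mean Sphk1 was 6.46-fold higher in eYFP- than in eYFP+ macrophages. The fitted log2 value for eYFP+ minus eYFP- was -2.65 ± 0.83, which missed the threshold (DESeq2 adjusted p = 0.0617). It passed at the same size without Ly6Clo replicate 2 (adjusted p = 7.75e-05) and without Ly6Clo replicate 1 (adjusted p = 0.018). It also passed at -3.25 without eYFP+ replicate 1 (adjusted p = 0.0225), and in the fit on 6 macrophage libraries (adjusted p = 3.45e-05), all in DESeq2. With the GC content correction it was -2.17 and did not pass (adjusted p = 0.177), which touches a gene of 59.6% GC, and the adjusted p was 0.46 with edgeR. It was called in 8 of 26 settings.

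Sphk2 was at 9.04, 34.1 and 41.2 TPM in eYFP+ macrophages, and at 15.2, 30.1 and 24.5 TPM in eYFP- macrophages. It was at 36.9, 36.6 and 40.4 TPM in Ly6Chi monocytes, and at 19.0, 1.25 and 16.9 TPM in Ly6Clo monocytes. The low values were those of Ly6Clo replicate 2 and eYFP+ replicate 1, which were also poor in other GC-rich transcripts, and the macrophage groups overlapped. Sphk2 did not differ beyond its spread between macrophages and monocytes (0.12 ± 0.50, DESeq2 adjusted p = 0.89, or -0.20 ± 0.31 and 0.656 without Ly6Clo replicate 2) or between the macrophage groups (0.28 ± 0.71, adjusted p = 1). Each Ly6Chi library lay above each Ly6Clo library, as for 16.2% of all genes tested, with a log2 difference of 1.66 ± 0.71 that did not pass (DESeq2 adjusted p = 0.14). It was 1.12 ± 0.24 and passed without both GC-poor libraries (DESeq2 adjusted p = 5.48e-05), and it was 1.13 and did not pass without Ly6Clo replicate 2 alone (adjusted p = 0.108). With the GC content correction over all 12 libraries it was 1.54 ± 0.51 and passed (DESeq2 adjusted p = 0.0296), and 2 of 26 settings called it in all. Sphk1 made up 30.3% ± 15.7 of the summed kinase TPM in eYFP- macrophages and 8.68% ± 10.2 in eYFP+ macrophages, against 1.25% ± 0.463 in Ly6Chi and 2.19% ± 2.27 in Ly6Clo monocytes (SD, n = 3). The eYFP+ value rests on the GC-poor replicate 1, with 20.5% against 3.27% and 2.29% in the others, and was 2.78% without it. The Ly6Clo value was 3.28% without replicate 2.

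Sgpl1, the lyase of the endoplasmic reticulum, was the most abundant of the 8 transcripts in all groups but Ly6Clo monocytes. Its level was 96.8, 302.4 and 338.6 TPM in eYFP+ macrophages, and 138.6, 278.8 and 225.0 TPM in eYFP- macrophages. It was 150.9, 146.1 and 157.1 TPM in Ly6Chi monocytes, and 111.0, 43.4 and 115.7 TPM in Ly6Clo monocytes. Replicate 1 was the lowest library in both macrophage groups, and macrophages and monocytes overlapped. Macrophages had more Sgpl1 than monocytes by a log2 fold change of 0.85 ± 0.33 (DESeq2 adjusted p = 0.0307). This call was lost in DESeq2 without Ly6Clo replicate 2 (0.64, adjusted p = 0.0502), without eYFP- replicate 2 or 3 (0.135 and 0.0754), without eYFP+ replicate 2 or 3 (0.148 and 0.106) and without Ly6Chi replicate 1, 2 or 3 (0.0707, 0.0718 and 0.0624). With all libraries it was lost with edgeR (0.0556), with limma on log2(TPM + 0.1) (0.0554), and in DESeq2 with total-count scaling (0.0532), without independent filtering (0.0587) and with the replicate block (0.0711). It was made in 11 of 25 settings. Lyase TPM per summed kinase TPM was 8.38 ± 0.302 in eYFP+ macrophages, 6.41 ± 1.49 in eYFP- macrophages and 3.94 ± 0.0996 in Ly6Chi monocytes (SD, n = 3). It was 15.7 ± 16.6 in Ly6Clo monocytes, or 6.15 without replicate 2.

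**Figure D3:**
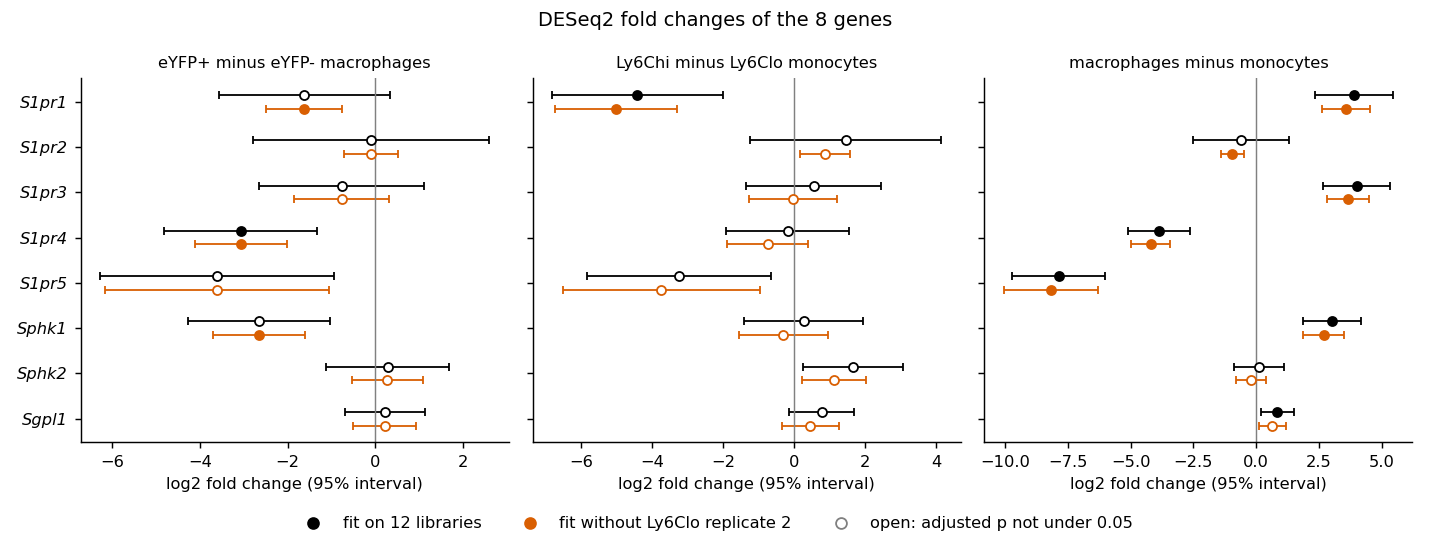
DESeq2 log2 fold changes of the 8 genes (horizontal axis, bars are 95% intervals) for the macrophage groups (eYFP+ minus eYFP-), the monocyte groups (Ly6Chi minus Ly6Clo) and macrophages minus monocytes, from all 12 libraries (black) and without Ly6Clo replicate 2 (orange); filled points passed the adjusted p of 0.05. S1pr1 and Sphk1 between the macrophage groups and S1pr2 between macrophages and monocytes were filled only without that library, and Sgpl1 between macrophages and monocytes only with it.

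When the groups were ordered by mean TPM for each gene, 5 of 24 neighbouring pairs differed beyond their spread over 12 libraries. These were Ly6Clo above Ly6Chi for S1pr1, eYFP+ above Ly6Chi for S1pr3 (log2 difference 3.35 ± 0.96, DESeq2 adjusted p = 0.00329), Ly6Chi above eYFP- and eYFP- above eYFP+ for S1pr4 (adjusted p = 0.0438 and 0.0325), and Ly6Chi above eYFP- for S1pr5 (4.44 ± 1.33, adjusted p = 0.00482). Of all genes tested, 24.5% differed between eYFP+ macrophages and Ly6Chi monocytes and 28% between eYFP+ macrophages and Ly6Clo monocytes. For eYFP- macrophages these shares were 27.4% against Ly6Chi and 26.3% against Ly6Clo monocytes. For S1pr2, Sphk1, Sphk2 and Sgpl1 no neighbours were told apart. With the order of all 12 libraries held, 9 of these 24 pairs differed without Ly6Clo replicate 2, and those gained were eYFP- above eYFP+ for S1pr1 and Sphk1, Ly6Chi above eYFP- for S1pr2 and eYFP+ above Ly6Chi for Sphk1. The Ly6Clo mean then lay between Ly6Chi and eYFP- for S1pr2 (10.4 TPM), and between eYFP+ and Ly6Chi for S1pr3 and Sphk1 (1.08 and 0.625 TPM). These counted pairs were thus no longer neighbouring pairs. By those means, eYFP+ exceeded Ly6Clo in S1pr3 (3.27 ± 0.63, DESeq2 adjusted p = 2.18e-06). Ly6Chi against Ly6Clo in S1pr2 and eYFP+ against Ly6Clo in Sphk1 did not pass (DESeq2 adjusted p = 0.111 and 0.143).

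Several lists of markers of other cell types had lower summed levels in eYFP+ than in eYFP- macrophages, the direction seen for S1pr1, S1pr4, S1pr5 and Sphk1, while none of the 7 macrophage markers passed between these groups. The 10 NK and T cell markers summed to 7.97 to 21.7 TPM in eYFP+ and 60.0 to 120 TPM in eYFP- macrophages, where 5 and 8 of the 10 had counts in every library. Of these 10, 1 was lower in eYFP+ macrophages and none was higher (DESeq2). The 7 neutrophil and precursor markers summed to 27 to 54.5 and 162 to 1180 TPM, and 3 of the 7 were lower in eYFP+ macrophages. Ly6Chi monocyte markers summed to 6.33 to 7.96 and 9.59 to 48.8 TPM, with 2 of 3 tested lower, and the 5 erythroid markers to 6865 to 11792 and 17317 to 28273 TPM, with 1 of 5 lower. Ly6Clo monocyte markers summed to 679 to 1120 and 670 to 780 TPM, with 2 of 6 lower. Stromal markers summed to 7.06 to 15.2 and 40.3 to 66.0 TPM, with none of 5 passing. Several sums were mostly those of 1 gene. In the NK and T cell list Nkg7 held a mean of 57.7 TPM in eYFP- macrophages, where the mean sum was 96.1 TPM. Nkg7 was also at 37.2 TPM in Ly6Chi monocytes. The T cell markers Cd3e and Trac, both at low level, had higher means in eYFP+ than in eYFP- macrophages. The other markers of that list had lower means in eYFP+ macrophages. In the Ly6Clo monocyte list Treml4 held means of 777 TPM in eYFP+ and 663 TPM in eYFP- macrophages, and the median log2 fold change of the list, eYFP+ minus eYFP-, was -0.91. In the stromal list Cxcl12 held 8.95 and 47.8 TPM, and the median was -1.61. B cell markers summed to 470 to 701 and 456 to 584 TPM, of which Cd79b held means of 562 and 513 TPM. Endothelial markers summed to 33.3 to 50.9 and 51.3 to 57.2 TPM, of which Pecam1 held 42.8 and 49.2 TPM. Megakaryocyte and platelet markers summed to 122 to 200 and 136 to 184 TPM, of which Pf4 held 170 and 140 TPM. The median log2 fold changes of these 3 lists were -3.10 (B cell, none of 4 tested called), -2.25 (endothelial, none of 5) and -1.62 (megakaryocyte and platelet, 1 of 4 lower). The platelet integrin Itga2b was at 0.774 ± 0.276 TPM in eYFP+ and 15.8 ± 4.98 TPM in eYFP- macrophages (SD, n = 3). Among these lists Gp1bb, a platelet glycoprotein, was the marker at 0 in all 3 eYFP+ libraries. It was also at 0 in every monocyte library and near the floor in eYFP- macrophages, with a mean of 0.0416 TPM. The part of such cells in the differences of S1pr1, S1pr4, S1pr5 and Sphk1 was not tested.

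The neighbouring steps of the pathway were covered by 63 genes in 5 lists. Between macrophages and monocytes 58 were tested, of which 19 were higher and 16 lower, where 20.3% of all genes were higher and 15% lower. Their median log2 difference was 0.36, against 0.08 for all genes. Without Ly6Clo replicate 2, 20 were higher and 17 lower of 58 tested, at a background of 39.2% in either direction, and each gene named here in this comparison kept its call and direction. Of the 11 genes for removal and export of S1P, 6 were higher and 2 lower in macrophages (6 and 3 without Ly6Clo replicate 2), with a median of 1.90. The lipid phosphatases Plpp1 and Plpp3 were higher by log2 fold changes of 5.33 ± 0.38 and 4.61 ± 0.59, and the S1P exporter of red cells and platelets Mfsd2b by 4.17 ± 0.44 (DESeq2 adjusted p = 1.16e-19 for Mfsd2b). The 5 erythroid markers moved with Mfsd2b, with summed levels of 6865 to 11792 TPM in eYFP+ and 17317 to 28273 TPM in eYFP- macrophages against 272 to 672 TPM in Ly6Chi and 415 to 1075 TPM in Ly6Clo monocytes, and their part in its difference was not tested. Sgpp1, the phosphatase that returns S1P to sphingosine, was lower by -0.99 ± 0.29, and Aldh3a2, which oxidises the aldehyde that the lyase releases, by -0.82 ± 0.19.

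Of 13 tested genes for the synthesis of ceramide, 1 was higher and 5 were lower in macrophages, and 3 and 5 of 14 without Ly6Clo replicate 2. Lower were the ceramide synthases Cers6 (-2.59 ± 0.39) and Cers4 (-2.03 ± 0.38) and the desaturase Degs1 (-2.01 ± 0.23), all on the log2 scale. Of 13 tested genes for release and use of ceramide, 6 were higher and 2 lower, and 7 and 2 of 12 without that library. The ceramide kinase Cerk and the ceramidase Asah2 were higher by 2.44 ± 0.36 and 1.88 ± 0.57. Both sphingomyelin synthases were lower, Sgms2 by -5.24 ± 1.02 and Sgms1 by -4.71 ± 0.19. Sgms1 was at 52.4 ± 3.78 TPM in Ly6Chi and 117 ± 24.4 TPM in Ly6Clo monocytes but at 5.44 ± 1.43 TPM in eYFP- and 1.92 ± 0.180 TPM in eYFP+ macrophages (SD, n = 3).

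Among 15 genes that couple to or regulate the receptors, 6 were higher and 6 lower in macrophages, and 4 and 6 without Ly6Clo replicate 2. The G protein subunit Gna12 was higher by 3.52 ± 0.19 on the log2 scale, with 62.4 ± 2.50 TPM in eYFP+ and 51.4 ± 1.87 TPM in eYFP- macrophages against 3.57 ± 0.873 and 5.96 ± 0.788 TPM in Ly6Chi and Ly6Clo monocytes. The arrestin Arrb2 and the subunit Gnaq were higher by 1.0 ± 0.34 and 0.79 ± 0.21. Klf2, a transcription factor that activates S1pr1 in lymphocytes, was lower by -2.95 ± 0.30, and Cd69, which takes S1pr1 off the cell surface, by -2.23 ± 0.33. Gnai3 was lower by -0.92 ± 0.26. Thus, S1pr1 and Klf2 transcripts differed in opposite directions between these cells. Of the 6 receptors for lysophosphatidic acid, a related lipid mediator, Lpar6, which belongs to the P2Y family and not to that of the S1P receptors, was lower by -2.0 ± 0.21 and the other 5 did not pass.

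**Figure D4:**
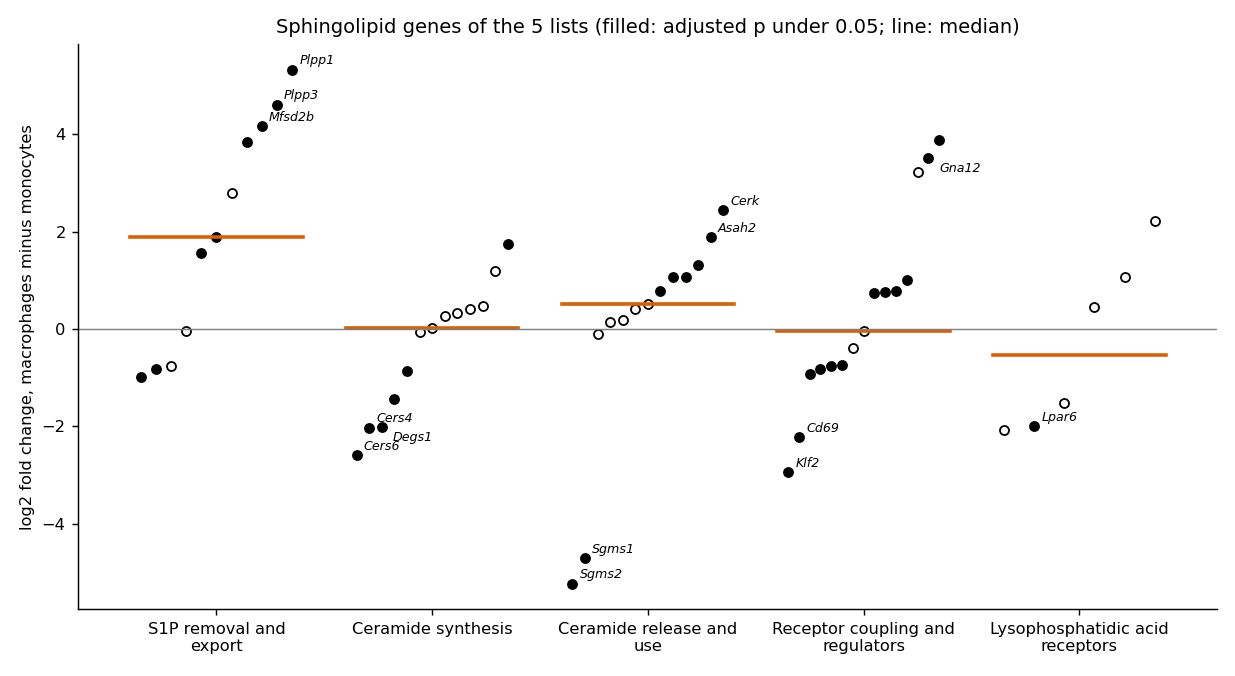
DESeq2 log2 fold change, macrophages minus monocytes (vertical axis), of the tested genes of the 5 lists, sorted within each list; filled points passed the adjusted p of 0.05, lines are list medians, and a part of the genes named in the text is labelled. Plpp1, Plpp3 and Mfsd2b lie above 4, and Sgms1 and Sgms2 lie below -4.

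Between eYFP+ and eYFP- macrophages 57 of the 63 genes were tested and 2 passed, both lower in eYFP+ cells, at a background of 1.88% of all genes lower. With Ly6Clo replicate 2 left out, 4 of 56 were lower and none was higher, at 4.16% in either direction. Mfsd2b was lower by -2.09 ± 0.60 (DESeq2 adjusted p = 0.0304), with 4.83 ± 0.733 TPM in eYFP+ and 20.9 ± 1.51 TPM in eYFP- macrophages, and Sgms1 by -1.45 ± 0.27 (DESeq2 adjusted p = 2.14e-05). Mfsd2b is an erythroid gene, and the erythroid markers differed in the same direction as given above, but their part in it was not tested. Between Ly6Chi and Ly6Clo monocytes 57 were tested, of which 1 was higher and 10 lower in Ly6Chi cells, where 3.66% of all genes were higher and 4.97% lower. The lower genes included Plpp1 (-2.40 ± 0.56), the glucosylceramide synthase Ugcg (-2.39 ± 0.50), Cers4 (-2.21 ± 0.53), the lipid transporter Abca1 (-1.87 ± 0.47), the transcription factor Foxo1 (-1.34 ± 0.46), Sgms1 (-1.15 ± 0.26) and Lpar6 (-0.97 ± 0.29), on the log2 scale. Without Ly6Clo replicate 2, 2 were higher and 7 lower of 55 tested, at 9.7% in either direction. Foxo1 then did not pass (-0.78 ± 0.39, DESeq2 adjusted p = 0.252), and Ugcg and Cers4 passed at smaller sizes (-1.65 ± 0.38 and -1.25 ± 0.36). Without both GC-poor libraries the counts in this comparison were 6 higher and 9 lower of 56 tested, at 13.6%.

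Over the 12 libraries, the genes with the pattern most like each of the 8 were found by Pearson's r of the deposited variance-stabilised values among 11058 genes. S1pr1 was followed most closely by Faah (r = 0.955), Shmt2 (0.952) and Il2rb (0.950). S1pr3 was followed by Morn1 (0.981), Trim10 (0.980) and Ttc8 (0.976), and Sphk1 by Mcm2 (0.968), Tfr2 (0.965) and Orc1 (0.963). The genes most like S1pr5 were Mirt1 (0.982), Lrrc8c (0.980) and Chmp2b (0.976), and those most like S1pr4 were Fut7 (0.979), Rpl8 (0.974) and Pck2 (0.973). For S1pr2 they were Ptbp1 (0.988), Vps51 (0.985) and Mfsd13a (0.984), for Sphk2 Tfe3 (0.992), Slc25a22 (0.982) and Rab11fip5 (0.978), and for Sgpl1 Scarb2 (0.979), Grn (0.977) and Nod1 (0.975). These values describe 12 libraries that fall into separate groups of cells and share depth and GC effects within a library, so no p is given.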

How the data were processed

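Sorted bone marrow myeloid cells were sequenced as amplified full-length cDNA in 12 libraries. As the methods state, reads were trimmed and corrected by the authors, who removed ribosomal RNA and aligned the rest with segemehl to GRCm39. Read pairs with an unambiguous alignment were counted per gene by featureCounts, and these counts were deposited. The authors deposited TPM values (counts per transcript length, scaled per library) and variance-stabilised counts on a log2-like scale from DESeq2. Reads were amplified without molecular identifiers, so errors come from the spread between replicates. Groups and replicate numbers were taken from the sample titles, and all columns were used. Symbols, GC content and transcript length came from GENCODE M21, of another build. Coordinates are therefore given only for the printed promoter windows, in GRCm38.p6 and not in the build of the alignment. It paired 91.4% of identifiers with a symbol.

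Tests used DESeq2 1.42.0 under R 4.3.3 (1 fit over 12 libraries, group as only factor, median-of-ratios size factors, Wald tests, Benjamini-Hochberg adjusted p under 0.05 over all genes tested, independent filtering). Alternatives were edgeR 4.0.16 (quasi-likelihood), scaling by TMM or total counts, a filter of 10 counts in 3 libraries, a replicate block, independent filtering or Cook's cutoff switched off, only the libraries compared, a GC correction, limma 3.58.1 on log2(TPM + 1) or log2(TPM + 0.1), and leaving out libraries. Scripts were tested on simulated data. The 8 genes and all lists were chosen with earlier results of these data known. List genes were named with an adjusted p under 0.05 and a mean of at least 50 normalized counts, up to the 3 largest fold changes in each direction per list. A gene that met this rule is not reported here. Like genes needed the same mean, and predicted genes were left out. Depth was 26390927 to 48618187 counts per library.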

Additional observations from a re-analysis of the deposited data

How the results depend on the processing

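Of 583 values of single genes under the alternatives, 504 kept their direction and their side of the threshold, 32 lost and 30 gained a call, and 17 changed sign. Between macrophages and monocytes, S1pr1, S1pr3, S1pr4, S1pr5 and Sphk1 passed in each alternative that gave a p.

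Counts of the 8 genes are given here with the share of all genes called by the same rule. For eYFP+ minus eYFP- macrophages, 1 was called over 12 libraries (2.04% of all genes). It was 0 with edgeR (0.328%), without independent filtering in DESeq2 (0.801%) and with limma on log2(TPM + 0.1) (1.11%), where 3 each had an unadjusted p under 0.05 (7.26%, 4.56% and 8.69% of all genes). It was 2 with TMM factors (2.1%) or the GC content correction (1.98%), and 3 with total-count scaling (2.54%), in the fit on the macrophage libraries alone (3.28%) or without both GC-poor libraries (4.61%). Leaving out each library in turn gave 0 to 3 (1.31% to 4.16%). For Ly6Chi minus Ly6Clo monocytes, 1 was called (8.62%), against 0 with edgeR (4.18%) and limma on log2(TPM + 0.1) (6.94%), where 3 and 4 had an unadjusted p under 0.05 (18.9% and 21.7% of all genes). It was 2 with TMM factors (9.39%) or total-count scaling (9.25%), 3 with the GC content correction (11.1%) and 4 without both GC-poor libraries (13.6%), with 0 to 2 when each library was left out in turn (6.45% to 11.3%). Of the 24 neighbouring pairs in the order of all 12 libraries, which was held in every setting although some groups change places, 5 differed, against 2 with edgeR or limma on log2(TPM + 0.1), 3 without independent filtering, 9 in fits on only the libraries compared or without both GC-poor libraries, and 3 to 9 when each library was left out.

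Same-numbered libraries did not deviate together (r of -0.018 to 0.111 over 2000 genes), so the numbers are not taken to pair the samples. With the replicate block in DESeq2, 2 genes were called between the macrophage groups (S1pr4 and Sphk1), 1 between the monocyte groups and 5 between macrophages and monocytes (3.03%, 6.29% and 23% of all genes). With edgeR and the block, an alternative chosen after seeing the data, the numbers were 0, 0 and 5 (0.13%, 2.77% and 30.9%; 3 and 2 at an unadjusted p under 0.05 in the first 2), with 1 neighbouring pair.

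The values that changed sign were not past the threshold. For eYFP+ minus eYFP- macrophages they were S1pr2 (0.17 without both GC-poor libraries, 0.18 without eYFP+ replicate 1), Sgpl1 (-0.035) and Sphk2 (-0.052), both without eYFP+ replicate 3. For Ly6Chi minus Ly6Clo they were S1pr3 (-0.030 without Ly6Clo replicate 2, -0.033 without both GC-poor libraries), Sphk1 (-0.31 in both) and S1pr4. S1pr4 moved to 0.73 and 0.88 with limma at the larger and smaller pseudocount, 0.02 without Ly6Chi replicate 3, and 0.36 and 0.07 without Ly6Clo replicate 1 and 3. For macrophages minus monocytes they were S1pr2 (0.26 with limma on log2(TPM + 0.1)) and Sphk2 (-0.075 with the GC content correction, -0.04 without eYFP+ replicate 3, -0.20 without Ly6Clo replicate 2). When each library was left out in turn, these genes ranged over -0.49 to 0.18 (S1pr2), -0.035 to 0.57 (Sgpl1) and -0.052 to 0.68 (Sphk2) between the macrophage groups, over -0.030 to 3.27 (S1pr3), -0.75 to 0.36 (S1pr4) and -0.31 to 1.43 (Sphk1) between the monocyte groups, and over -0.20 to 0.32 (Sphk2) between macrophages and monocytes. The cause was not tested. S1pr3 had no adjusted p in DESeq2 without eYFP+ replicate 1, 2 or 3. Macrophages minus monocytes uses all 12 libraries, so it has no fit on fewer groups.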
